A study of Mus musculus with 9 samples.

Results

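The V portion of the immunoglobulin heavy chain locus (Igh) was followed along its whole length in 5 lists of ChIP-seq peaks. The region was fixed by position as chr12:114811023-117252061 of the mouse mm9 assembly. Its 2.44 Mb run from the end next to the D genes (D-proximal, low coordinates) to the distal end. Its bounds use no measured value, but the region was chosen with earlier results of these data known. A peak belonged to it when at least 1 bp lay inside. This gave 475 of the 190262 peaks of the series: 121 pre-B CTCF peaks, 163 CTCF peaks of IL7-cultured pro-B cells (IL7 CTCF), and 92, 21 and 78 Rad21 peaks of pre-B cells, DN thymocytes (double-negative for CD4 and CD8) and DP thymocytes (double-positive). The mm9 annotation places 116 Vh genes and pseudogenes of 16 families there, the D-most at 0.00143 Mb and the last at 2.43 Mb from the D-proximal edge, and 114 of them lie on the minus strand, so their 3′ ends face the D genes.

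The study asked how far CTCF and cohesin occupancy at antigen receptor loci depends on lineage and stage. All mice were C57BL/6 of both sexes and deficient in the RAG recombinase, so the endogenous locus was unrearranged in each library. Pre-B cells came from the bone marrow of RAG-/- animals that carry a rearranged IgM transgene, and pro-B cells from RAG1-/- bone marrow grown in IL7 for 7 days, both from donors of 6 to 14 weeks. DN cells were thymocytes of Rag1-/- mice, and DP cells those of Rag1-/- mice with a rearranged TCRb transgene, at 4 to 8 weeks. Each condition had 1 library, set against input of the same cells, and the pre-B CTCF and Rad21 libraries used the same input. There is therefore no measure of the spread between animals, no test between conditions was run, and intervals are exact 95% Clopper-Pearson intervals that cover counting error only. The lists hold 9701 peaks (Rad21 DN) to 71080 (IL7 CTCF), and the read depth behind them is unknown. A site without a peak is one that was not called in that list. The rank of a peak is given as the percentage of peaks in its own list with a lower MACS score. Whether reads from the IgM transgene added to the pre-B lists was not tested.

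CTCF is a zinc finger protein that binds DNA in an oriented manner, and the ring-shaped cohesin complex, of which Rad21 is a subunit, tends to come to rest at its sites and holds DNA loops there. The Igh locus contracts by looping in pro-B cells, which brings distal V genes near the D and J genes. Each V gene ends at its 3′ side in a recombination signal sequence (RSS), a conserved heptamer, a spacer and a nonamer, where the RAG recombinase cuts. The Vh genes fall into families: Vh7183 and VhQ52 lie next to the D genes, a group of small families follows, and the large J558 family, interspersed with Vh3609 genes, fills the distal part.

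Of the 57 pre-B CTCF peaks on the D-proximal side of the midpoint, 33 lay at the 3′ end of a V gene. The sequences that set these sites apart are those that join the V gene to its CTCF motif. They are shown on the minus strand of mm9, in the sense of the V gene, from the last 6 annotated bases of the gene to the end of the motif. Capitals mark the heptamer of the RSS and the best match to a CTCF motif of 12 bases, here as its reverse complement. The motif is the de novo one of the study's HOMER search. One gene was taken from each of 5 families.

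Ighv5-12 (chr12:114940265-114940340): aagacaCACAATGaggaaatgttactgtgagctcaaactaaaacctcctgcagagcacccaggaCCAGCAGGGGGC
Ighv2-3 (chr12:114849323-114849400): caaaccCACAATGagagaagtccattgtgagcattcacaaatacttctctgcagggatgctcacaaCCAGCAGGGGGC
Ighv7-4 (chr12:115460927-115461004): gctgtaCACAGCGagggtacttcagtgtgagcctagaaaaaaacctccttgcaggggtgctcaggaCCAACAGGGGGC
Ighv11-1 (chr12:115220018-115220095): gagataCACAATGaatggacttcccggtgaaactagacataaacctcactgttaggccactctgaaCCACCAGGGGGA
Ighv10-1 (chr12:115717145-115717221): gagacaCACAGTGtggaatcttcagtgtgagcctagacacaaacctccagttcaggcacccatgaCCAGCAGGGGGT

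In all 5 families the motif followed the RSS at close to the same distance. A pre-B CTCF peak lay within 100 bp of the 3′ end of 33 of the 116 annotated Vh genes (28.4%, 20.5 to 37.6), and each of these 33 RSS-associated peaks also overlapped the gene itself. Of the other 88 pre-B CTCF peaks, 0 overlapped an annotated V gene, 74 lay upstream of the nearest V gene 3′ end and 14 downstream, and 5 lay at the 3′ end of a V-like sequence that the annotation does not list. Between the end of the gene and the motif there were 52 to 190 bases, most often 60 (15 genes) or 58 (8 genes), and no more than 66 in 32 of the 33. The heptamer CACAGTG, sought in the sense of the gene around its 3′ end, was exact at 21 of the 33 genes and within 1 mismatch at the other 12, against 79 exact among all 116. From heptamer to motif there were most often 53 bases, at 20 of the 33. The exception was Ighv3-2, with 190 bases between gene and motif. Its heptamer match began inside the annotated gene, chr12:115272144-115272302, which is shorter than the other annotated Ighv3 genes. Whether this gene ends at its RSS was not tested, so the 190 bases may not be a distance from the RSS.

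The families differed in whether they carried such a site. Of the 10 genes of the Vh7183 family (Ighv5), 9 had a pre-B CTCF peak at the 3′ end, as did 8 of the 10 VhQ52 genes (Ighv2), 4 of 4 S107 genes (Ighv7), 3 of 6 of the 36-60 family (Ighv3), both Ighv6, both Ighv10 and both Ighv11 genes, Ighv4-1, the Ighv12 gene and 1 of 2 Ighv13 genes. No pre-B CTCF peak lay at the 3′ end of any of 58 J558 genes (Ighv1), which allows a share of up to 6.16%, nor at that of 8 genes of the Vh3609 family (Ighv8), 4 Ighv9 and 4 Ighv14 genes, Ighv15-2 or Ighv16-1. Taking the families other than J558 and Vh3609 together, 33 of 50 genes had a site (66.0%, 51.2 to 78.8). The RSS-associated sites thus ran from the D-proximal edge to 0.951 Mb and were not called in the pre-B list beyond. The sites of the Vh7183 family were high in the list: the median rank among pre-B CTCF peaks was 83.2%, against 58.7% for VhQ52 and 57.3% for S107, although the Vh7183 range went from 12.4% at Ighv5-16 to 93.7% at Ighv5-12. The Ighv11 sites were near the top too, at 85.6% and 86.1%.

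Pre-B CTCF peaks whose nearest annotated V gene is a J558 or Vh3609 gene did not overlap that gene. Many of them lay at a set distance upstream of it. Some, such as those at Ighv1-9 and Ighv1-24, are on the D-proximal side of the midpoint. The next sequences show the 12-base match in capitals with 12 bases on each side, again on the minus strand, for the 2 highest-ranked peaks at each of 3 distances from a J558 3′ end and for 2 peaks near Vh3609 genes. These distances were read off after the values were seen.

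Ighv1-67 (chr12:116843365-116843400): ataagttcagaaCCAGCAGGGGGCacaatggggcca
Ighv1-69 (chr12:116862606-116862641): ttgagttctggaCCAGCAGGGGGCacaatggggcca
Ighv1-42 (chr12:116177968-116178003): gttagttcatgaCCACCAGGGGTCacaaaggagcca
Ighv1-24 (chr12:116013823-116013858): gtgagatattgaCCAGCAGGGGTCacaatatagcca
Ighv1-9 (chr12:115825633-115825668): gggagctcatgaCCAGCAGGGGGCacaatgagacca
Ighv1-78 (chr12:117110856-117110891): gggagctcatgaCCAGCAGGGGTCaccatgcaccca
Ighv8-8 (chr12:116536434-116536469): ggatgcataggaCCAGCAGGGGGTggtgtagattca
Ighv8-6 (chr12:116410141-116410176): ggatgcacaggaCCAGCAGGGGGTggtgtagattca

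Many of the J558 sites fell into 3 tiers by their distance from the nearest gene. In 10 peaks, at Ighv1-52 to Ighv1-74, the best motif match lay 1189 to 1261 bases upstream of the 3′ end. In 7 peaks, at Ighv1-19 to Ighv1-42, it lay 2630 to 2696 bases upstream, and in 13 peaks 3735 to 4055 bases upstream. The match had at most 2 mismatches in all 10 and all 7 of the first tiers but in 8 of the 13, so the place of the other 5 is that of a weaker match. The last group was found toward both edges of the J558 domain, at Ighv1-2 to Ighv1-14 and at Ighv1-66 to Ighv1-83, with Ighv1-54 between them. With V-like sequences that the annotation does not list, a peak at 1.41 Mb joined this tier, 3993 bases upstream of one most similar to Ighv1-9, so the nearest annotated gene is not always the nearest V segment. Together these were 30 of the 64 pre-B CTCF peaks whose nearest annotated V gene is a J558 gene. Near Vh3609 genes, 3 peaks had the best match 4157 to 4459 bases upstream and 3 others at 6037 to 6165 bases, with at most 2 mismatches in 3 and 2 of them. With V-like sequences counted, the nearest and middle J558 tiers held 11 and 8 peaks and the nearer Vh3609 group 4. Around the motif, 60 bases were compared between peaks. Identity had a median of 91.7% within the nearest J558 tier, 86.7% within the middle and 68.3% within the far tier, and 73.3% between the nearest and the middle. The median between the far tier and the others was close to that within it, at 68.3% with the middle and 66.7% with the nearest tier. The Vh3609 sites of both distances were alike, with a median of 96.7% between them. Between any J558 tier and the RSS-associated sites the median was 48.3 to 50%, against the 51.7% among the RSS-associated sites themselves, which come from many families.

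The J558 tiers, set after the values were seen, are described by rank and by the lists that shared them. Genome-wide, 63.5% of pre-B CTCF peaks overlapped pre-B Rad21, 52.0% DP Rad21 and 96.0% IL7 CTCF. The nearest tier had a median pre-B CTCF rank of 72.2% (49.1 to 84.2) and was called in pre-B Rad21 at 10 of 10 sites and in DP Rad21 at 9. The middle tier had a median rank of 19.9% (12.3 to 67.4), and pre-B Rad21 was called at 3 of 7 sites and DP Rad21 at 5. In the IL7 CTCF list the middle tier was called at 7 of 7 sites and again ranked below the nearest tier, with a median of 45.4% against 76.1%. The far tier was between them in pre-B CTCF (median 49.0%, 17.0 to 85.1), and 11 of its 13 sites had pre-B Rad21 and 7 had DP Rad21, a DP count near the genome-wide share. The DP peaks there were high in their list, with a median rank of 82.5%.

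**Figure D1:**
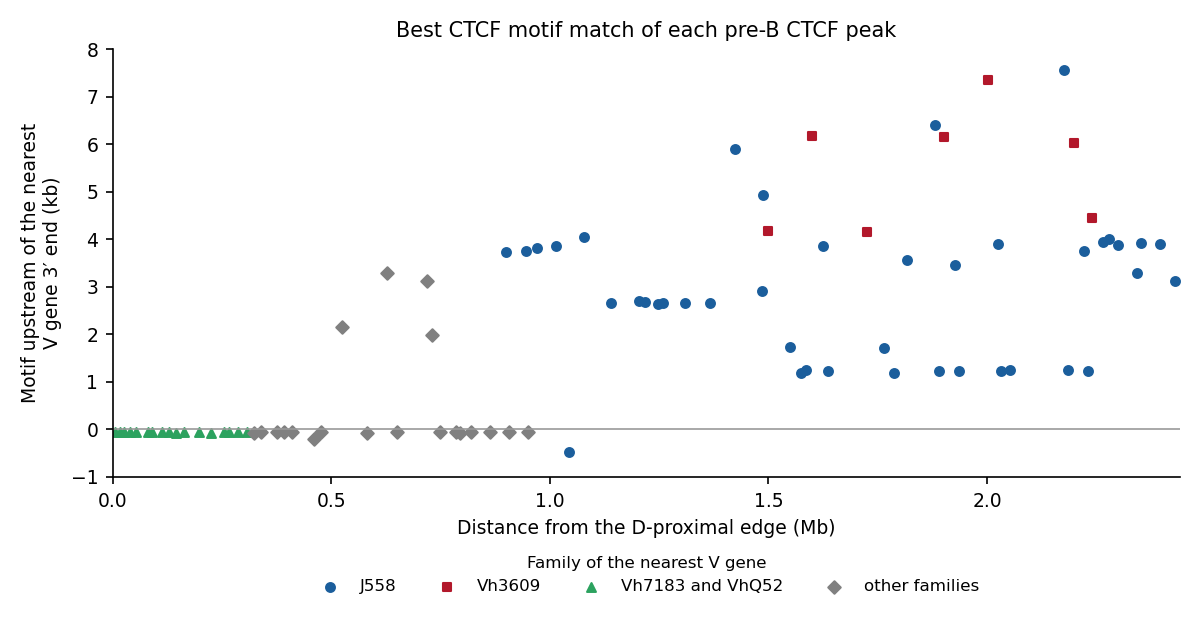
Distance in kb from the 3′ end of the nearest annotated V gene to the best CTCF motif match of each pre-B CTCF peak (vertical axis, upstream positive) against the distance of the peak from the D-proximal edge in Mb. Symbols give the family of that V gene, 86 peaks are within the axis range and 35 lie outside it; matches of the Vh7183 and VhQ52 families lie just past the gene end at 0, those of other D-proximal families within the axis range lie there or up to 3289 bases upstream, and J558 matches form levels at medians of 1238, 2656 and 3884 bases.

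Over all 121 pre-B CTCF peaks, the motif was found with at most 2 mismatches on either strand in 95 (78.5%, 70.1 to 85.5), against 48.3% of pre-B CTCF peaks genome-wide. All 94 matches with a clear strand lay on the plus strand, where the genome-wide share was 50.4%, and 1 was tied between strands. As the V genes lie on the minus strand, the reverse complement of the match reads in the sense of the V genes along the whole region. The share with a match was 86.0% in the D-proximal part up to the midpoint at 116031542 (49 of 57) and 71.9% in the distal part (46 of 64). It was 97.0% at the RSS-associated sites (32 of 33) and 71.6% at the other 88. Peaks with fewer mismatches ranked higher: the median rank was 64.4% for the 48 with 1 mismatch, 49.0% for the 45 with 2 and 43.8% for the 22 with 3.

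CTCF peaks were spread over the whole V portion without an empty stretch at the scale of 0.25 Mb. Counted from the D-proximal edge in bins of that length, the pre-B CTCF list held 8 to 16 peaks per bin and the IL7 CTCF list 14 to 19. The highest pre-B CTCF count, 16, lay from 2.00 to 2.25 Mb, where Rad21 also had its highest counts, 15 pre-B, 14 DP and 5 DN peaks. The last bin covers 0.191 Mb and held 8 pre-B CTCF peaks. Neighbouring pre-B CTCF peaks lay a median of 17296 bp apart, 18611 bp in the D-proximal and 14199 bp in the distal part, with a range from 2042 to 50502 bp.

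The 3 longest gaps lay from 1.26 to 1.31 Mb (50502 bp, with Ighv1-33, Ighv1-34 and Ighv1-36 inside), from 0.475 to 0.523 Mb (47937 bp, with Ighv16-1, Ighv9-1 and Ighv14-3) and from 0.580 to 0.627 Mb (46605 bp, with Ighv3-3 and Ighv14-4). None held a DP Rad21 peak. In the IL7 CTCF list they held 1, 1 and 2 peaks. The first pre-B CTCF peak lay at Ighv5-2, chr12:114816212-114817043, and the last at 2.44 Mb, chr12:117248895-117249742, 11079 bp upstream of the 3′ end of Ighv1-85. Their ranks were 83.2% and 50.7%. The last one also had Rad21, at rank 20.2% in pre-B and 86.4% in DP cells.

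**Figure D2:**
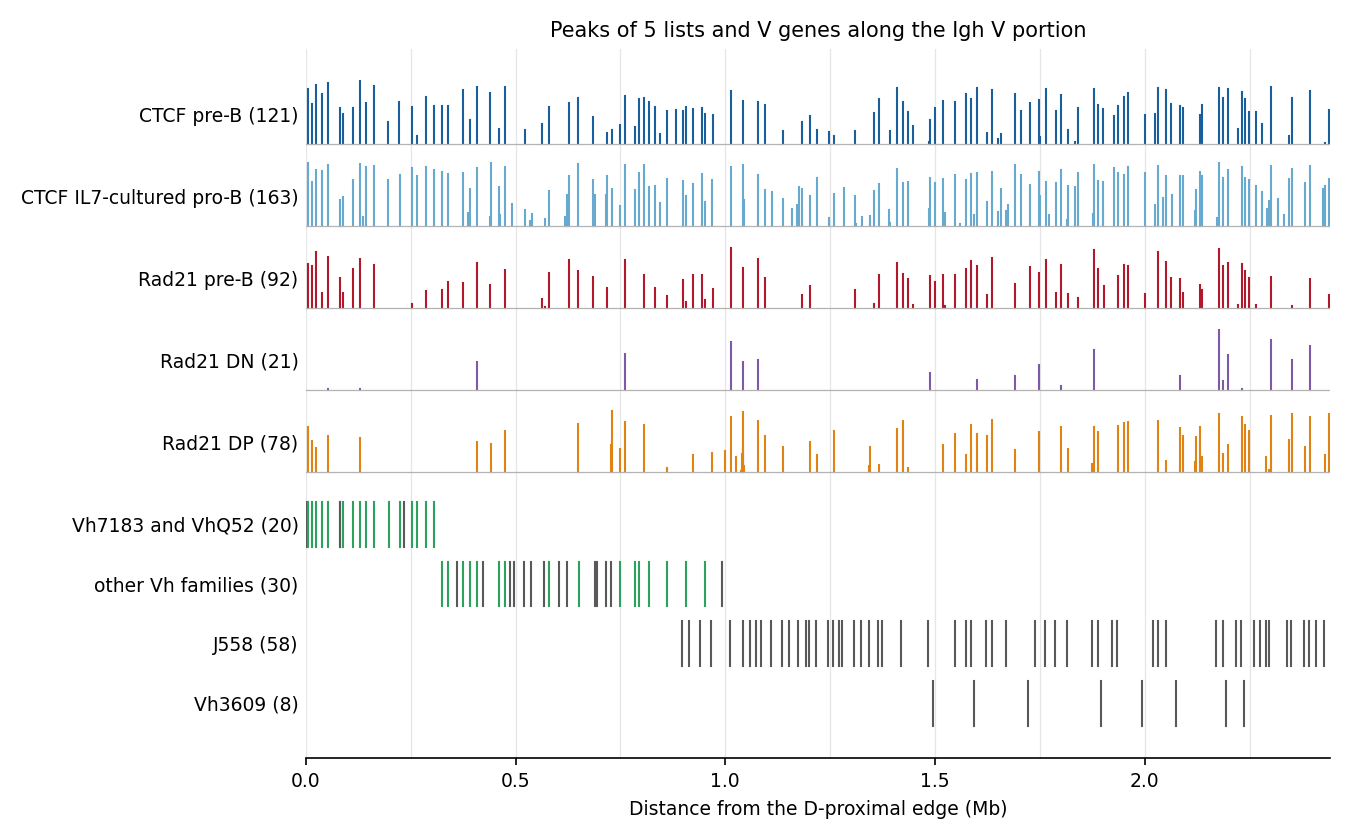
Peaks of the 5 lists and annotated V genes against the distance from the D-proximal edge in Mb, with the number of peaks or genes beside each name. The height of a peak line is its rank in its own list (full row height for 100%), V genes are drawn in 4 groups of families, green where a pre-B CTCF peak lies at the 3′ end, and all green genes lie below 1 Mb.

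The ranks of CTCF peaks did not rise or fall steadily with position. The median pre-B CTCF rank was 55.8% in the D-proximal part (57 peaks, 12.4 to 93.7) and 55.7% in the distal part (64 peaks, 1.22 to 85.1). Spearman's rho of rank against position was -0.054 over these 121 peaks of 1 library, given as a description. By bin the median ranged from 30.2% in the third bin to 64.8% in the seventh. For the 163 IL7 CTCF peaks it was -0.0060, and for Rad21 -0.043 over 92 pre-B peaks, 0.14 over 78 DP peaks and 0.25 over 21 DN peaks. DP Rad21 had a median rank of 41.9% over 31 D-proximal and 57.7% over 47 distal peaks. The highest 10% of each list held 2 of the 121 pre-B CTCF, 13 of the 163 IL7 CTCF, 0 of the 92 pre-B Rad21, 1 of the 21 DN and 1 of the 78 DP peaks of the V portion.

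Among the highest pre-B CTCF peak of each bin, the V gene nearby changed from Vh7183 to J558 with position. The peaks at Ighv5-12 (93.7%), Ighv11-1 (86.1%) and Ighv7-4 (69.4%) lay at an RSS in the first 3 bins. In the fourth bin it was a peak 10367 bp upstream of the 3′ end of Ighv3-8, chr12:115570794-115571110, with rank 72.6%. Beyond 1 Mb they lay upstream of Ighv1-9 (79.1%), 9411 bp past the 3′ end of Ighv1-47 at 1.41 Mb (84.5%, the peak 3993 bases upstream of a V-like sequence), and upstream of Ighv8-6 (84.6%), Ighv1-59 (82.5%), Ighv1-67 (84.2%) and Ighv1-78 (85.1%). The peak near Ighv1-59, chr12:116574825-116575233, had Rad21 in pre-B cells at rank 71.3% and none in either thymocyte list.

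Rad21 in pre-B cells accompanied CTCF along the whole locus. Of the 57 D-proximal pre-B CTCF peaks, 40 overlapped a pre-B Rad21 peak (70.2%, 56.6 to 81.6), as did 50 of 64 distal peaks (78.1%, 66.0 to 87.5), against 63.5% of pre-B CTCF peaks genome-wide. By bin the share ran from 62.5 to 93.8%, the highest from 2.00 to 2.25 Mb, where 15 of 16 CTCF peaks had Rad21. CTCF peaks without pre-B Rad21 ranked lower: the 31 of them had a median CTCF rank of 21.7% (1.22 to 68.0), and the 90 with Rad21 one of 61.3% (16.4 to 93.7). In the other direction, 40 of 41 D-proximal and 50 of 51 distal Rad21 peaks overlapped CTCF, against 88.1% genome-wide. The 2 that did not were near the bottom of the Rad21 list. At chr12:115380780-115381184, near Ighv9-3, the Rad21 rank was 1.71%, and at chr12:116334927-116335206, near Ighv1-50, it was 3.33%. Both coincided with a weak IL7 CTCF peak, of rank 11.0% and 20.2%.

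Rad21 of DP thymocytes was called at a lower share of the D-proximal than of the distal CTCF sites. It overlapped 24 of the 57 D-proximal pre-B CTCF peaks (42.1%, 29.1 to 55.9), whereas distally the count was 39 of 64 (60.9%, 47.9 to 72.9), against 52.0% genome-wide, and these intervals overlap. In the first 4 bins, up to 1 Mb, the share was 34.7% (17 of 49, 21.7 to 49.6) and in the other 6 bins 63.9% (46 of 72, 51.7 to 74.9), a division at the end of the RSS-associated sites that was chosen after the values were seen. Pre-B Rad21 had 69.4% and 77.8% in the same stretches. The RSS-associated sites themselves had DP Rad21 at 11 of 33 (33.3%, 18.0 to 51.8). The other 24 D-proximal peaks had it at 13 (54.2%). The median CTCF rank was 57.5% at the RSS-associated and 50.02% at the other D-proximal sites. Peak by peak, CTCF ranks were lower without DP Rad21: the median was 63.3% for the 24 D-proximal peaks with it and 54.4% for the 33 without, and 67.4% and 41.9% for the distal ones. The part of CTCF rank in the DP share was not tested. By family, DP Rad21 was called at 4 of 9 sites of the Vh7183 family and pre-B Rad21 at 8, while VhQ52 sites had them at 1 and 4 of 8. At the 4 S107 sites pre-B Rad21 was called at 4 and DP Rad21 at 1. Both were called at the 2 Ighv11 sites, and in the 36-60 family pre-B Rad21 was called at 0 and DP Rad21 at 1 of the 3′ ends.

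In DN thymocytes, whose list is the shortest, Rad21 lay at 7 D-proximal (12.3%) and 14 distal (21.9%) pre-B CTCF peaks, against 22.0% genome-wide, and 3 of the 33 RSS-associated sites were called. All 21 DN peaks overlapped pre-B CTCF, against 96.1% genome-wide, and 20 overlapped a DP peak, against 94.5%. The CTCF peaks with DN Rad21 were the stronger ones, with a median rank of 78.5% against 52.1% for the other 100.

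**Figure D3:**
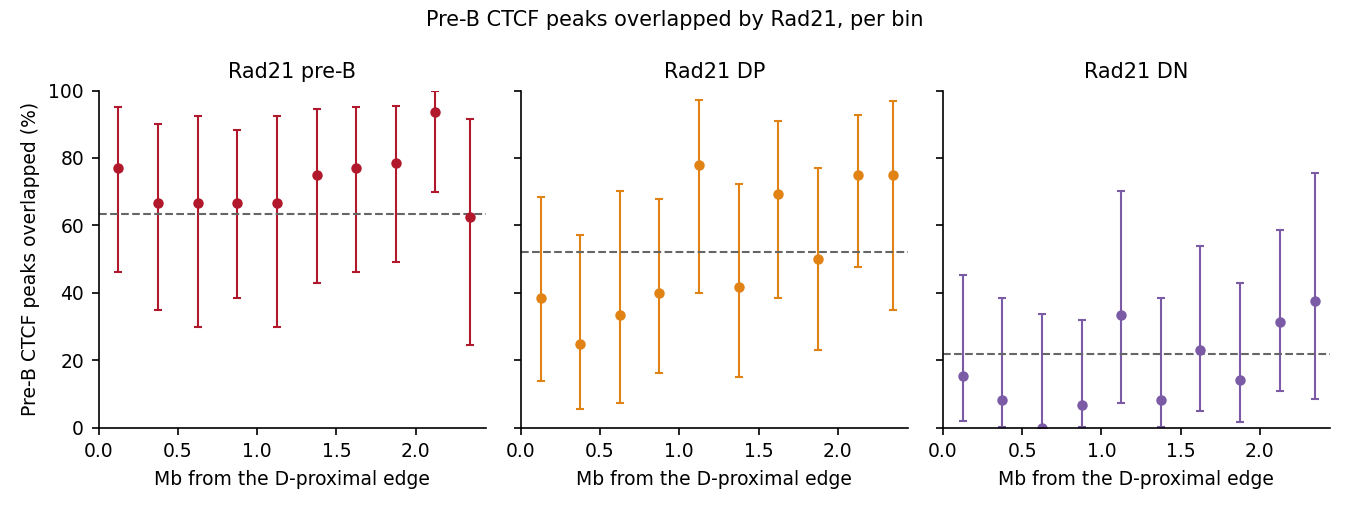
Percentage of pre-B CTCF peaks that overlap a Rad21 peak of pre-B cells, DP or DN thymocytes in each 0.25 Mb bin, against the distance from the D-proximal edge in Mb. Points are shares within 1 library with exact 95% intervals and the dashed lines are the genome-wide shares of 63.5, 52.0 and 22.0%; the DP points of the first 4 bins lie between 25.0 and 40.0%, those of the sixth and the eighth bin are also below the line, and every DP interval includes the line.

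Joining the peaks of the 5 lists gave 175 sites, 81 in the D-proximal and 94 in the distal part. CTCF was called in at least 1 list at 166 of them. The most frequent patterns were IL7 CTCF alone (38 sites, 21.7%, against 30.1% genome-wide), all lists but Rad21 DN (36 sites, 20.6%, against 12.0%), both CTCF lists with pre-B Rad21 (29 sites, 16.6%, against 8.35%) and both CTCF lists without Rad21 (23 sites, 13.1%, against 13.6%). Of the 29 sites in both CTCF lists and pre-B Rad21 only, 19 were D-proximal and 10 distal. The sites in all lists but DN went the other way, with 13 and 23. DP Rad21 alone was found at 9 sites (5.14%, against 12.3% genome-wide). Pre-B CTCF alone was found at 1 site (0.571%, against 1.09% genome-wide). It lay at 0.883 Mb, at the 3′ end of a V-like sequence most similar to Ighv6-6, with rank 51.0%. Pre-B Rad21 alone was found at 0 of 175 sites, against 1.68%.

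Altogether 20 sites were called in all 5 lists (11.4%, 7.12 to 17.1, against 10.3% genome-wide), 7 D-proximal and 13 distal. Counting the 4 lists without Rad21 DN, 56 sites were shared (32.0%, 25.2 to 39.5, against 22.3%). Of the 20 sites, 13 had a J558 gene as the nearest V gene, 3 a Vh3609 gene, and 3 were RSS-associated, at Ighv5-6, Ighv5-12 and Ighv11-1. CTCF was strong at these sites, with a median rank of 78.7% in pre-B and 88.5% in IL7-cultured cells, against 52.0% for the other pre-B CTCF peaks.

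The 5 sites whose lowest rank was highest are given with all their ranks. At chr12:116987674-116988434, upstream of Ighv1-71, the CTCF ranks were 84.1% (pre-B) and 94.3% (IL7), and the Rad21 ranks 87.9% (pre-B), 90.3% (DN) and 87.1% (DP). This was the highest V-portion peak of both the IL7 CTCF and the DN list. At chr12:115825200-115825840, upstream of Ighv1-9, the ranks in the same order were 79.1, 88.3, 89.2, 71.9 and 83.1%. The site at chr12:116690658-116691640, upstream of Ighv1-62-2, had 82.1, 91.2, 86.4, 59.5 and 67.7%. That at chr12:115570705-115571373, upstream of Ighv3-8, had 72.6, 91.8, 71.8, 53.6 and 74.5%. At chr12:117110673-117111378, upstream of Ighv1-78, they were 85.1, 90.5, 46.0, 75.2 and 84.1%, so pre-B Rad21 was the lowest there. None of these 5 lies at an RSS.

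**Figure D4:**
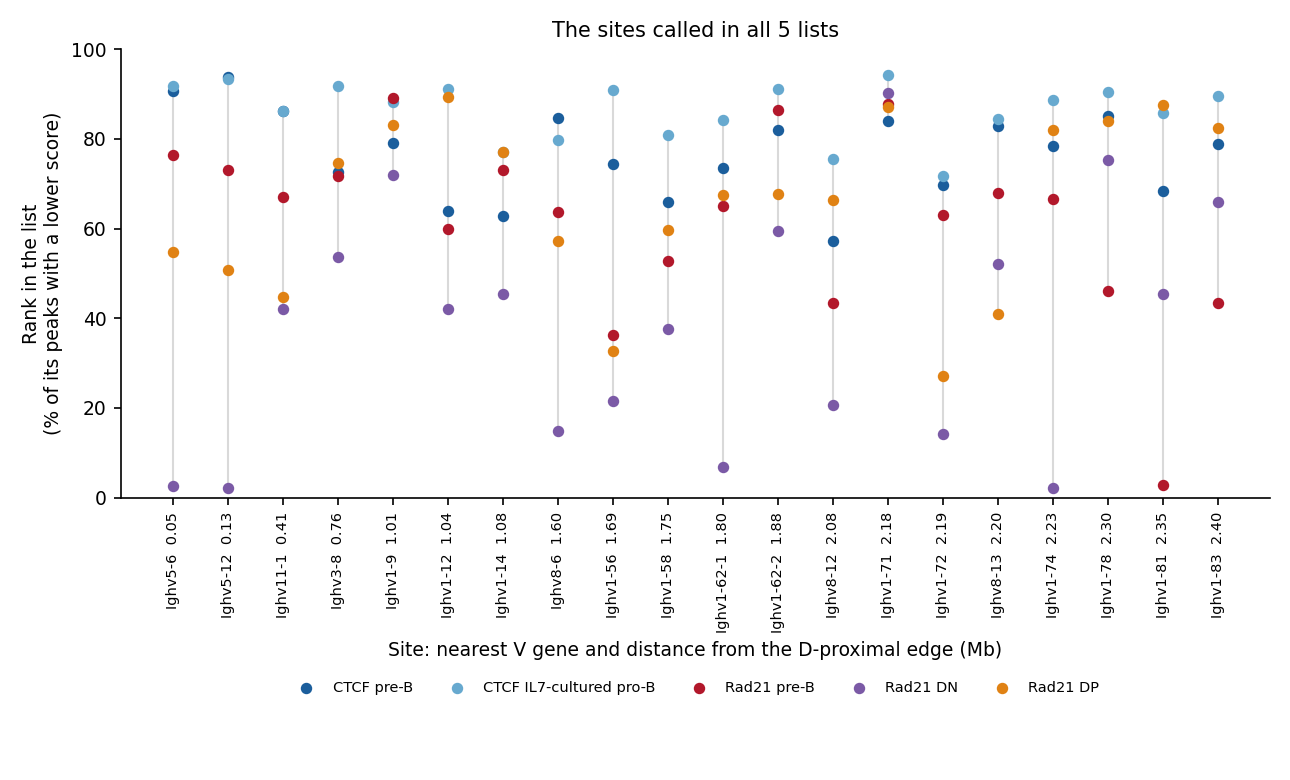
Rank of the peak in each of the 5 lists (percentage of the peaks of that list with a lower score) at the 20 sites called in all lists, ordered by distance from the D-proximal edge in Mb and named by the nearest annotated V gene. Grey lines join the lowest and highest rank; the ranks of the Ighv1-71 site lie between 84.1 and 94.3%, whereas the Rad21 DN rank at Ighv5-6 and Ighv5-12 is 2.59 and 2.08%.

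At the distal end Rad21 ranked higher within the DP than within the pre-B list. The site near Ighv1-81 at 2.35 Mb had Rad21 ranks of 2.86% (pre-B), 45.3% (DN) and 87.6% (DP), with a pre-B CTCF rank of 68.4%. At Ighv1-83, 2.40 Mb, these 4 ranks were 43.5, 65.9, 82.5 and 78.9%. In the last bin the median Rad21 rank was 20.2% over 5 pre-B peaks and 48.7% over 9 DP peaks. At the RSS-associated sites of Ighv5-6 and Ighv5-12 the order was the reverse, with pre-B Rad21 at 76.5 and 73.1%, DP Rad21 at 54.7 and 50.7%, and DN Rad21 at 2.59 and 2.08%. This did not hold at every RSS-associated site. At Ighv5-2, Ighv7-4 and Ighv11-2 pre-B Rad21 ranked 66.1, 55.5 and 57.6% and DP Rad21 68.1, 72.1 and 61.8%. The sites named in this paragraph were chosen after their values were seen, and ranks compare sites within a list, not occupancy between cells.

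The 2 CTCF lists overlapped in the V portion to about the same extent as elsewhere when counted from the pre-B list. Of the 121 pre-B peaks, 116 overlapped an IL7 CTCF peak (95.9%, against 96.0% genome-wide), 55 of 57 D-proximal and 61 of 64 distal. In the other direction, 118 of the 163 IL7 peaks were shared with pre-B cells (72.4%, 64.9 to 79.1), and genome-wide 58.6% were. The median IL7 rank was 71.9% for these 118 and 22.2% for the 45 others (0.106 to 64.5). The motif was found in 94 of the 118 (79.7%) and in 17 of the 45 (37.8%), 14 of them on the plus and 3 on the minus strand. Of the 45, 5 lay at a V gene 3′ end, at Ighv3-3, Ighv3-6, Ighv8-6, Ighv1-56 and Ighv1-62-1, named here after their values were seen. The motif was exact at Ighv3-3 and had 1 mismatch at Ighv3-6, both D-proximal genes of the 36-60 family, with IL7 ranks of 46.2% and 45.9%. At the other 3 it had 4 mismatches. Sites called in IL7-cultured pro-B cells alone had their highest count from 0.50 to 0.75 Mb (7 of 18 sites), against 30.1% of sites genome-wide. The next count was 6 of 19 sites, from 1.00 to 1.25 Mb, and these bins were picked after the values were seen.

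DP Rad21 peaks in the V portion overlapped pre-B CTCF at 64 of 78 (82.1%, 71.7 to 89.8), against 60.3% genome-wide. The 9 DP sites in neither CTCF list were low in the DP list, with a median rank of 22.4% (2.13 to 41.2), and the CTCF motif was found in 0 of them. By position, 5 of these 9 overlapped a V gene at its 3′ end: Ighv9-4 (41.2%), Ighv1-39 (8.61%), Ighv1-62-2 (12.3%), Ighv1-77 (22.4%) and Ighv1-78 (4.03%), named after their values were seen. Of the V genes, 17 had a DP Rad21 peak at the 3′ end, 5 of them J558 genes. The highest DP peak of the region, chr12:115539804-115540306 at 0.729 Mb, had a DP rank of 92.0%. It is not one of the 9: it overlapped CTCF at rank 21.3% in pre-B and 55.0% in IL7-cultured cells. No pre-B Rad21 peak was called there.

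PAIR4, one of a set of conserved elements in the distal V region that are bound by Pax5, was placed by the authors' primers at chr12:116500668-116501110, 1.69 Mb from the edge. It was called in all 5 lists, with CTCF ranks of 74.5% (pre-B) and 90.8% (IL7) and Rad21 ranks of 36.3% (pre-B), 21.6% (DN) and 32.6% (DP). Each CTCF rank there was above each Rad21 rank. The nearest V-like sequence, most similar to Ighv8-8, ends 4309 bases downstream. With V-like sequences counted, the pre-B CTCF peak at PAIR4 joins the nearer group of Vh3609 sites, its best motif match lying 4472 bases upstream.

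Duplicated sequence differed along the region. The authors kept reads that map to up to 3 places, so a repeat can share reads between sites. Of the 36-base words of a pre-B CTCF peak, a median of 19.1% in the D-proximal and 41.0% in the distal part occurred again in the V portion or within 5 kb of it. By bin the median did not follow position: it was 38.5% in the first bin, 0.13% in the third and 3.45% in the sixth, and 30.0 to 60.2% in the last 4. The values at the J558 tiers were 56.9% (nearest), 31.0% (middle) and 56.1% (far), and 24.1% at the RSS-associated sites. Whether reads placed at more than 1 copy set the number or rank of the distal peaks was not tested.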

How the data were processed

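CTCF and Rad21 ChIP-seq peaks were taken as deposited, with 1 list for each of 5 libraries. Per the methods, the authors trimmed adapters and discarded duplicates, and mapped to mm9 using Bowtie with at most 2 mismatches and up to 3 places per read. The Bowtie version is 0.12.9 in the submitters' processing notes, whereas the paper's methods name a later one. Peaks were called against input with MACS 1.4.2 at a false discovery rate of 1%. The deposited values are peak positions and the authors' MACS score, which depends on depth and was used only to rank peaks within a list, as the percentage of its peaks with a lower score. Read counts per library are not given in the sources used here.

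Peaks overlapping the region by 1 bp were kept, binned by midpoint (0.25 Mb) and joined into sites by overlap of 1 bp. Vh genes came from the GENCODE annotation of NCBIM37 (mm9). Of 116 genes, 37 carried an Ighv symbol and 79 were named through RefSeq synonyms, with the family as the number in the symbol. For comparison, blastn 2.17.0 (E-value 1e-20) placed 55 further V-like sequences, 42 of them reaching the 3′ end. Motif and repeat searches used the mm9 sequence, and 0 of the 190262 peaks lay beyond a chromosome end of it. The CTCF motif was allowed 2 mismatches. Python 3.11.15, numpy 2.4.6, scipy 1.17.1 and matplotlib 3.10.9 were used, and overlap, site joining and motif search were tested on simulated data.

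The region, the lists and the questions were chosen with earlier results of these data known. Sites named by rule are the highest pre-B CTCF peak of each bin and the 5 sites in all lists with the highest lowest rank. Rad21 peaks without CTCF, the longest gaps, the first and last peak and PAIR4 were also named by rule, each with the nearest V gene. Some further sites were named after their values were seen. Alternatives were scores of at least 100, lists cut to 9701 peaks, midpoint counting, edges 20 kb wider, 50% overlap, other distances, mismatch limits and word lengths, and, added after the data were seen, leaving out the DN list and adding V-like sequences. Uncultured pro-B cells and CTCF in thymocytes were not analysed here.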

Additional observations from a re-analysis of the deposited data

How the results depend on the processing

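Of 78 alternative values for 24 results, 59 stayed within the interval of the reported value or within 1.5 times a count. With every list limited to its 9701 highest peaks, the V portion held 21 pre-B CTCF, 23 IL7 CTCF, 14 pre-B Rad21 and 16 DP Rad21 peaks beside the 21 of Rad21 DN, so the order of the Rad21 lists by number of peaks turned round. The median spacing then rose to 72661 bp. Pre-B Rad21 lay at 47.6% of pre-B CTCF peaks (44.4% D-proximal, 50% distal) and DP Rad21 at 33.3% (11.1% D-proximal, 50% distal). Of the sites, 4.44% were called in all 5 lists, and 16% of Vh genes outside J558 and Vh3609 had an RSS-associated peak. With scores of at least 100, pre-B Rad21 lay at 62.2% of the peaks (56.4% D-proximal, 67.9% distal). The median pre-B CTCF rank was then 56.0% D-proximal and 59.9% distal, which turns the order of these nearly equal medians. Genome-wide overlap shares under these cuts are not given here, so the cut shares cannot be set against the uncut genome-wide ones. The motif share was 41.3% at 1 mismatch and 96.7% at 3. With 50-base words the repeated share was 10.1% D-proximal and 28.0% distal. Leaving out the DN list, an alternative added after the data were seen, 32.0% of sites were shared by all remaining lists. Adding V-like sequences, also added later, left 0 J558 and Vh3609 genes with a pre-B CTCF peak at the 3′ end. The number of reads and the spread between animals are unknown, so weak sites missing from a list may lie below its limit. No paired analysis was possible because each group has 1 library and no test was run.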
